A study of Mus musculus with 6 samples.

Results

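The genes described here act in meiotic M phase and code for the kinases PLK1 and MASTL, the kinesins KIF2C and KIF20A, and the spindle midzone factor PRC1. They were taken by name from a table of 516 genes with a level in each of 6 RNA-seq libraries of ovulated mouse oocytes, and all 5 had 1 row each. The oocytes were arrested at metaphase of the second meiotic division (MII) and came from C57BL/6 mice aged 24 days. PMSG (5 IU) was given on day 22 and hCG (5 IU) 48 h after it, and the oviducts were opened 14 h after the second hormone. In 3 libraries (Mtor CKO) the gene of the kinase MTOR had been deleted by Zp3-Cre, a recombinase driven by a promoter that is active in growing oocytes. The other 3 libraries were labelled wild type (WT), and the labels do not say whether those mice carried floxed alleles. Each library was made from 5 oocytes, and the labels do not say whether libraries of a genotype came from separate mice, so the spread behind each p-value may be technical in part.

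Entry into and exit from meiotic M phase depend on CDK1 and on a small set of kinases that act beside it. PLK1 helps activate CDK1 and works at kinetochores, spindle poles and the midzone, and MASTL (Greatwall) holds back the phosphatase PP2A-B55, which would reverse CDK1 phosphorylation. Kinesins then shape the spindle: KIF2C (MCAK) removes tubulin from microtubule ends near centromeres, and KIF20A (MKLP2) carries the chromosomal passenger complex to the central spindle. PRC1 cross-links antiparallel microtubules there. Fully grown oocytes are nearly silent in transcription, so the mature egg relies on stored messenger RNA.

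All 5 transcripts were lower in Mtor CKO oocytes, with means between 29.97% (Kif2c) and 46.2% (Mastl) of the WT mean. Kif2c was the lowest relative to WT, followed by Kif20a (35.4%), Plk1 (40.9%), Prc1 (41.9%) and Mastl. In each of the 5 genes, every Mtor CKO library lay below every WT library, which was also the case for 57.4% of the 516 rows. By limma on log2(FPKM + 1), 5 of 5 fell at an adjusted p of 0.05, against 60.3% of the 471 tested genes that were called lower (73.7% in either direction). FPKM is a fragment count corrected for transcript length and for library size. The rows of the table had already been picked for a difference in these same libraries (absolute log2 fold above 1 and no p over 0.0099 in the authors' deposited table), so passing limma is a statement on size against spread and no independent evidence of a difference. The median log2 difference of the 5 genes was -1.39, beside -1.03 for all tested genes and -1.11 for the 361 tested genes that were lower in Mtor CKO. The calls rested on 4 of the 6 libraries: without CKO replicate 1, CKO replicate 3, WT replicate 2 or WT replicate 3, 0 of the 5 passed limma. Limma's adjusted p then ran from 0.0820 to 0.110, from 0.0964 to 0.101, from 0.102 to 0.117 and from 0.0843 to 0.111, and 3, 4, 3 and 3 of the 5 genes had an unadjusted p under 0.05. The number of called genes in the whole table fell from 347 to 4, 3, 3 and 4 in those fits. An unadjusted limma p under 0.05 was found there for 229, 231, 203 and 249 of the 471 tested genes. Without CKO replicate 2 or WT replicate 1 all 5 genes still passed, as did 389 and 246 of the 471 tested genes in either direction.

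FPKM values are relative to each library's total, so a change in total RNA per oocyte cannot be seen in them, and fewer contributing cells and less RNA per cell cannot be told apart. Read depth is unknown. Mtor was not among the 516 rows and was not analysed here, so the targeted gene gives no check of the labels. Of 18 oocyte marker genes, Zp2 and Nlrp5 were in the table, and they summed to 234 to 253 FPKM in Mtor CKO, below the 450.0 to 906 of the WT libraries. Of markers of other cells, 2 of 16 cumulus and granulosa genes (Mro and Vcan) were in the table, with a summed level of 1.68 to 3.15 in Mtor CKO against 4.50 to 9.86 in WT. Vcan was listed at 0 in all 3 Mtor CKO libraries and in WT replicate 3. The part of these cells in the differences was not tested. Of 7 oviduct genes Krt7 was in the table, at 4.23 to 10.1 FPKM against 2.45 to 4.40 in WT, and 0 of 8 blood and immune genes were. Markers without a row were not analysed here.

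The start regions of Plk1 and Prc1 share a run of letters, picked after the sequences were read, that is rare among promoters, and are shown for that reason. Genes that peak in G2 and M phase often carry a cell cycle genes homology region (CHR, TTTGAA), the element bound by MuvB complexes, together with CCAAT boxes bound by NF-Y. Windows of 250 bases before to 50 after the RefSeq start site (GRCm38.p6, both on the plus strand) were searched on both strands for TTTGAA and CCAAT, which do not overlap each other in these windows. Capitals mark the matches. The Plk1 window is chr7:122159185-122159484, and the Prc1 window is chr7:80294201-80294500.
Plk1: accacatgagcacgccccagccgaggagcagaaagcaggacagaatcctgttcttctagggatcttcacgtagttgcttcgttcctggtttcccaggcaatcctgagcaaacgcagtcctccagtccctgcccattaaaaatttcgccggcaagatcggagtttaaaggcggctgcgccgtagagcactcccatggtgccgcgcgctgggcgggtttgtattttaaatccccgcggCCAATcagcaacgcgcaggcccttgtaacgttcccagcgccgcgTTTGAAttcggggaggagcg
Prc1: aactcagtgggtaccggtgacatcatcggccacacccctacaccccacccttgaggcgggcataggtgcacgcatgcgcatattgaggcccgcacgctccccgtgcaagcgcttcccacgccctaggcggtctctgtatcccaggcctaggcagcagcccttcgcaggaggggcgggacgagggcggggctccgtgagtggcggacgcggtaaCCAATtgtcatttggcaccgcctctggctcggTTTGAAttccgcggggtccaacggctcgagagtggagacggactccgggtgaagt

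In Plk1 the CCAAT match began 14 bases before the RefSeq start and the TTTGAA match 30 bases after it. In Prc1 they began 37 and 5 bases before the start. A second RefSeq window of Prc1 begins a little further downstream and holds the same matches. TTTGAA on either strand was in the windows of 20.2% of 27025 genes, CCAAT in those of 41.1%, and both motifs in those of 7.97%. Among the 333 genes of the table with a window, TTTGAA was in those of 14.7% and CCAAT in those of 44.7%. Of other division genes of the table, described below, Kifc1 had both motifs in its window, Zw10 had TTTGAA and Gtse1 had CCAAT. The longer run TTTGAATTC, noticed in these windows after they were read, was in the windows of 0.370% of genes. Of 333 genes of the table with a window, Plk1 and Prc1 were the 2 that held it. Since the run was picked from these 2 windows, nothing is read from that count. The Mastl window had 1 CCAAT match, on the strand opposite to the gene, and no TTTGAA. The Kif2c window had 1 TTTGAA match, also opposite to the gene, 103 bases before a RefSeq start that lies 3867 bases from the annotated 5′ end of the gene. Kif20a was not searched. A match says only that the letters are present.

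The 3′ ends were read for elements that control poly(A) tails in oocytes, since maturing eggs lengthen the tails of selected stored messages through cytoplasmic polyadenylation elements (CPE, here TTTTAT or TTTTAAT) near the polyadenylation signal (AATAAA or ATTAAA). Only the sense strand of the annotated transcript was searched. In the last 100 nucleotides, 0 of the 5 genes had a CPE, and within 200 nucleotides 1 of the 5 did, Kif2c, against 25.3% of all coding genes. Such an element was in the last 100 nucleotides of 16.5% of 21785 coding genes, and of 22.5% of the table's genes that were lower and 11.5% of those that were higher in Mtor CKO. A polyadenylation signal was in the last 100 nucleotides of 3 of the 5 genes, against 74.1% of all coding genes and 80.7% of the table's genes. Mastl and Kif20a had none there, so a missing CPE says little where the annotated end may not be the end used. The matches nearest the end of the RNA are given as short stretches, written in DNA letters, with the element in capitals.
Kif2c CPE, 134 nucleotides from the end: gcactcatgaTTTTATactttcagaaaa
Kif2c signal, 22 nucleotides from the end: tgtacctaacAATAAAgaaagaagaaaa
Plk1 signal, 19 nucleotides from the end: ctttatatatATTAAAatgtgtacatct
Prc1 signal, 33 nucleotides from the end: aatgtatgaaAATAAAatgtgtatagtt

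The kinase gene Plk1 (ENSMUSG00000030867, chromosome 7, 122159439 to 122169873, plus strand, mm10) has 10 exons in its principal transcript of 2199 nucleotides. It stood at 46.1, 84.6 and 62.1 FPKM in WT replicates 1 to 3, in that order. The Mtor CKO replicates 1 to 3 had 13.9, 45.4 and 19.5 FPKM. The groups barely failed to overlap: CKO replicate 2 came within 0.637 FPKM of WT replicate 1, while the other CKO libraries were far lower. Its WT mean of 64.2 ± 19.3 FPKM stood against 26.3 ± 16.8 in Mtor CKO (mean ± SD of 3 libraries here and below). The coefficient of variation in Mtor CKO was 64.2%, the widest of the 5 genes. Limma gave a log2 difference of -1.39 with SE 0.48 (adjusted p = 0.0397), and it moved to -1.86 without CKO replicate 2 and to -1.04 without CKO replicate 1. A processed pseudogene elsewhere in the genome, Plk-ps1, matches 1813 nucleotides of the transcript at 93.5% identity, so some of its reads could be shared.

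Mastl (ENSMUSG00000026779, chromosome 2, 23115606 to 23156024, minus strand) has 12 exons and the longest transcript of the set, 5590 nucleotides, of which 2832 are 3′ UTR. Its level was 59.9, 100.1 and 115 FPKM in WT, against 36.9, 36.9 and 53.4 in Mtor CKO. The highest CKO library, replicate 3, lay 6.47 FPKM below the lowest WT library, replicate 1. From 91.8 ± 28.7 FPKM in WT the mean fell to 42.4 ± 9.54. On the log2 scale limma put the difference at -1.07 (SE 0.38), with an adjusted p of 0.0403. This was the smallest difference of the 5 genes, and 205 tested genes had a more negative value. No annotated transcript of another gene matched Mastl over 200 nucleotides at 90% identity.

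The microtubule depolymerase gene Kif2c (ENSMUSG00000028678, chromosome 4, 117159639 to 117182639, minus strand) has 20 exons and a principal transcript of 2842 nucleotides. It was at 42.0, 69.2 and 74.4 FPKM in WT but at 16.8, 24.9 and 13.9 in Mtor CKO. Here the groups were well apart, with 17.1 FPKM between the lowest WT and the highest CKO library. The mean fell 3.34-fold, from 61.9 ± 17.4 to 18.5 ± 5.73 FPKM. At -1.68 (SE 0.38, adjusted p = 0.0362 in limma), its log2 difference was the most negative of the 5 genes, and 36 of the 471 tested genes were further down. A noncoding gene elsewhere, Gm4961, matches 1443 nucleotides of Kif2c at 91.7% identity.

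Kif20a (ENSMUSG00000003779, chromosome 18, 34624613 to 34633277, plus strand), the central spindle kinesin, has 19 exons and a principal transcript of 3674 nucleotides. It was the least abundant of the 5, with 21.7, 38.4 and 44.3 FPKM in WT against 8.48, 15.6 and 12.8 in Mtor CKO. All CKO libraries were below WT replicate 1, the nearest by 6.05 FPKM. WT averaged 34.8 ± 11.7 FPKM and Mtor CKO 12.3 ± 3.61, which limma gave as -1.41 on the log2 scale (SE 0.40, adjusted p = 0.0362). In the authors' deposited table its q-value was 0.113, while those of Plk1, Mastl, Kif2c and Prc1 were 0.0103, 0.0327, 0.00591 and 0.00591. Of all 516 rows there, 254 had a q-value of at most 0.05. The interval given to Kif20a, 34598612 to 34651735, is wider than the gene and takes in Brd8 and Cdc23, which lie on the opposite strand. Cdc23, a subunit of the anaphase-promoting complex, shares 1271 exonic bases with Kif20a, so the row cannot be given to Kif20a alone where strand was not used.

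The microtubule bundler gene Prc1 (ENSMUSG00000038943, chromosome 7, 80294450 to 80316259, plus strand) has 14 exons and a principal transcript of 3026 nucleotides. It ranked 9th of the 516 rows by its WT mean, far above the other 4 genes. It was at 295 FPKM in WT replicate 1, 519 FPKM in WT replicate 2 and 538 FPKM in WT replicate 3. The Mtor CKO replicates had 154, 204 and 209 FPKM. The CKO libraries lay close together, with a coefficient of variation of 16.2%, and the nearest was 85.6 FPKM below the WT libraries. Mean levels were 450.5 ± 135 FPKM for WT and 189 ± 30.6 FPKM for Mtor CKO. That corresponds to -1.21 in limma's log2 fit, with SE 0.37 and an adjusted p of 0.0373. Its interval takes in Rccd1 on the opposite strand, with 911 shared exonic bases, and a processed pseudogene elsewhere, Gm13176, matches 476 nucleotides at 93.3% identity.

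**Figure D1:**
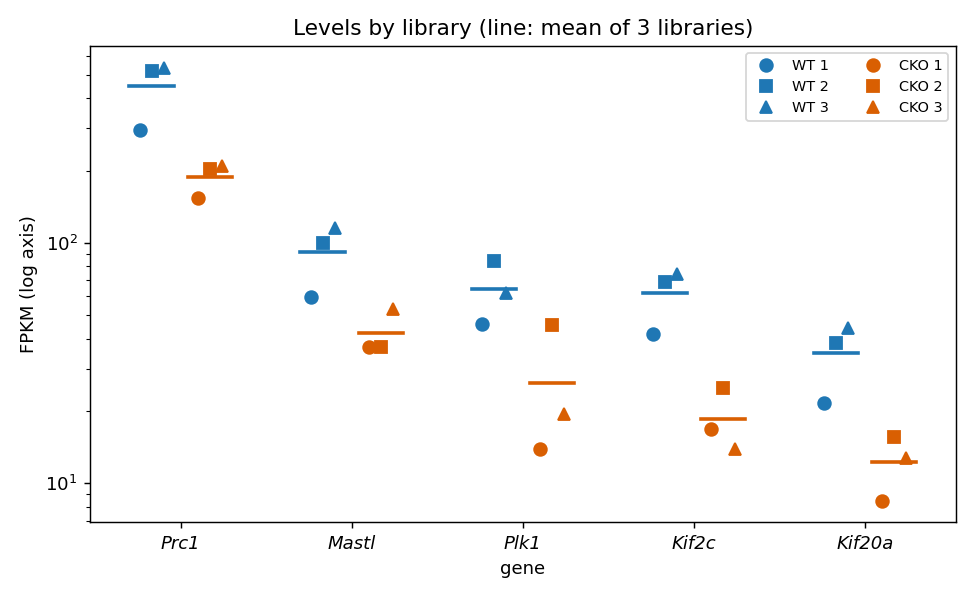
FPKM (log axis) of the 5 genes in each library, with WT in blue and Mtor CKO in orange, a marker shape for each replicate number and a line at each mean of 3 libraries. Every Mtor CKO point lies below every WT point of its gene, and for Plk1 the gap is only 0.637 FPKM.

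By mean FPKM the order of the genes was Prc1, Mastl, Plk1, Kif2c and Kif20a, in WT and in Mtor CKO alike. Only Prc1 was separate from its neighbour in that order, with a lowest library of 295 FPKM in WT, and 154 FPKM among the Mtor CKO libraries. Mastl and Plk1, Plk1 and Kif2c, and Kif2c and Kif20a overlapped in WT, and in Mtor CKO they overlapped too. Within each library Kif2c was still above Kif20a, by 0.107 to 0.922 on the log2 scale. Mastl and Plk1 changed places between libraries, and so did Plk1 and Kif2c. WT replicate 1 was the lowest WT library for all 5 genes, as it was for 54.7% of the 516 rows. Dividing each value by the median of the 516 rows in its library (3.77 to 5.40 FPKM for Mtor CKO, 7.37 to 9.18 for WT) left Kif2c as the only 1 of the 5 whose groups did not overlap. How many of the 516 rows stay apart on this scale was not counted, so Kif2c is not called unusual among them. Kif2c stood at 3.24 to 4.62 times the median in Mtor CKO and at 5.70 to 8.76 times in WT. Mastl came to 6.83 to 12.5 times in Mtor CKO and 8.12 to 13.6 times in WT, and Plk1 to 3.68 to 8.42 times against 6.25 to 9.21 times. The rows were picked for a difference and 76.4% of them were lower, so their median is not a neutral reference. With log2 values centred on the median of the tested genes in each library, 0 of the 5 passed limma (adjusted p from 0.0766 for Kif2c to 0.550 for Mastl, with 1 unadjusted p under 0.05). In that fit 131 of the 471 tested genes had an unadjusted limma p under 0.05.

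Ratios between members within a library depend little on how that library was scaled, and they show whether the genes fell by the same factor. For 9 of the 10 pairs the log2 ratios of the genotypes overlapped. After Benjamini-Hochberg adjustment over the 10 pairs the two-sided exact permutation p was 0.667 or more. With 3 libraries against 3 the smallest p this test can give is 0.1. The pair that did not overlap was Kif2c to Prc1. Its log2 ratio was -2.78, -2.89 and -2.84 in WT and -3.12, -2.98 and -3.82 in Mtor CKO, a mean difference of -0.47 (exact permutation p = 0.1, adjusted p = 0.667). How many pairs of other rows stay apart in this way was not counted, so this pair is not called unusual.

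The balance among Mastl, Kif2c, Kif20a and Prc1 hardly varied between WT libraries. Over their 6 pairs the SD of the within-library log2 ratio was 0.036 to 0.093 in WT, and 0.21 to 0.67 in Mtor CKO. For example, the log2 ratio of Mastl to Kif2c was 0.50, 0.53 and 0.63 in WT but 1.09, 0.55 and 1.87 in Mtor CKO. Plk1 was set apart after the values were seen, since its ratios were looser in WT too (SD up to 0.35), and all 10 pairs had the larger SD in Mtor CKO. Among all 4278 pairs of the 93 rows that were lower in Mtor CKO and at least as high as Kif20a in WT, the median SD was 0.49 in WT and 0.51 in Mtor CKO, and 47.9% of pairs varied more in Mtor CKO. The SD of those pairs went as low as 0.011 in WT, and how many were as tight as the 6 pairs without Plk1 was not counted. Pairs that share a gene are not independent and each SD rests on 3 libraries, so these spreads are given without a test. Leaving out CKO replicate 2 raised the number of pairs whose ratios did not overlap from 1 to 7, without CKO replicate 1 it was 3, and without WT replicate 3 it was 2. This number can only stay or rise when a library is left out, so nothing more is read from the rise.

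**Figure D2:**
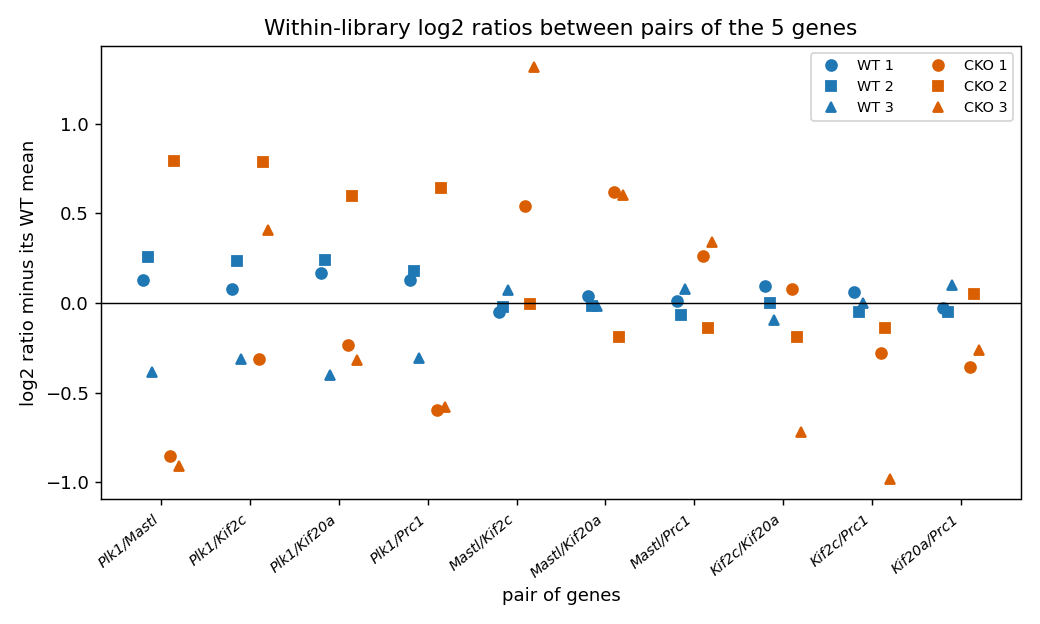
Within-library log2 ratios of the 10 pairs of genes, each shown relative to its mean in WT (blue, 3 libraries; orange, 3 Mtor CKO libraries). The pairs without Plk1 have WT points close to 0, with SDs of 0.036 to 0.093, and wider Mtor CKO points.

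Rows with at least the level or length of these transcripts were mostly lower in Mtor CKO, as were 76.4% of all 516 rows. Both limits were set at the lowest or shortest of the 5 genes. Of the 110 rows whose WT mean was at least that of Kif20a, the authors' deposited table gave 84.5% as lower in Mtor CKO, and in 66.4% every CKO library lay below every WT library. A floor on the WT mean alone favours lower rows in a table picked for differences, so these shares are not read as a trait of the level. The principal transcripts of the 5 genes ran from 2199 to 5590 nucleotides. Length was known for the 451 rows with a coding transcript. Among the 317 of them at least 2199 nucleotides long, 84.5% were lower in Mtor CKO, against 59.0% of the shorter ones. The part of transcript length in the differences was not tested.

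**Figure D3:**
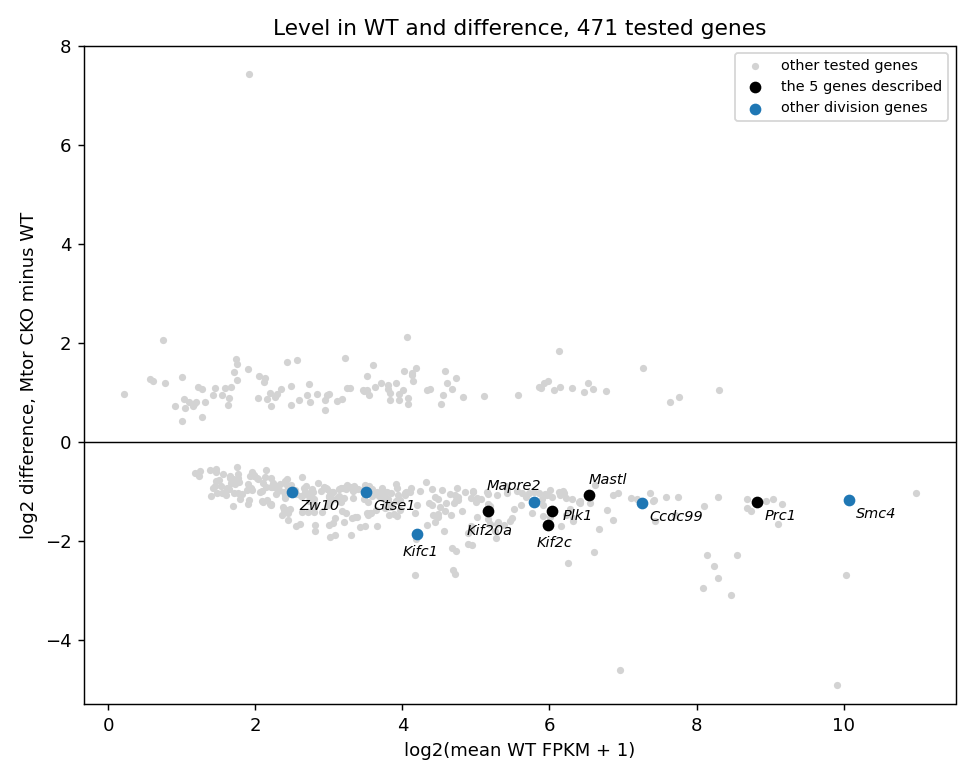
Log2 difference between Mtor CKO and WT (y axis) against the log2 of the mean WT FPKM plus 1 (x axis) for the 471 tested genes, with the 5 genes in black and other division genes in blue. The 5 genes lie between -1.68 and -1.07, within the band of lower genes at their levels.

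Other genes of the same machinery were looked up from lists of M-phase kinases and phosphatase regulators, kinesins, midzone and cytokinesis factors, spindle assembly factors, checkpoint and APC/C subunits, and cohesin and condensin. Of their 195 symbols 11 were in the table, the 5 genes above and 6 others, and 184 have no value here. Kinesins were looked up by the start of their name. Those without a row are among the 195 only where another list names them. Of the 11, 9 fell by limma and 0 rose, beside the 60.3% called lower and 13.4% called higher among all tested genes. The 9 include the 5 genes above, and of the 6 others Zw10 and Gtse1 did not pass. The lists were chosen with earlier results of these data known, so nothing particular to them is read from the counts. The minus-end kinesin Kifc1 (HSET), which focuses spindle poles, was at 10.8, 25.5 and 15.8 FPKM in WT and only at 1.01, 7.98 and 5.14 in Mtor CKO. At -1.86 (SE 0.59, adjusted p = 0.0374 in limma) its log2 difference was more negative than that of any of the 5 genes, but CKO replicate 1 stood apart from the other CKO libraries.

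Smc4, the core ATPase subunit of condensin, was the most abundant of the 11. WT libraries held 1091, 1291 and 836 FPKM, Mtor CKO libraries 430.1, 712 and 335, and the groups did not overlap (-1.17 on the log2 scale, adjusted p = 0.0397 in limma). The microtubule end-binding gene Mapre2 fell from 54.1 ± 8.33 to 23.6 ± 9.95 FPKM, by limma with an adjusted p of 0.0373. Spdl1, which recruits dynein to kinetochores and is listed under its older name Ccdc99, dropped from a mean of 152 ± 26.2 FPKM to 65.0 ± 19.8 (limma's log2 value -1.24, adjusted p = 0.0362). Divided by the library medians, Ccdc99 and Kif2c were the 2 of the 11 genes whose groups stayed apart, at 12.4 to 15.9 times the median in Mtor CKO and 16.5 to 19.3 times in WT for Ccdc99. The share of all rows that stay apart on this scale was not counted. Zw10, a checkpoint protein of kinetochores, and Gtse1, a microtubule-binding regulator of G2 and M phase, did not pass. Limma put them at -1.02 and -1.01 on the log2 scale, with adjusted p of 0.0639 and 0.0628.

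**Figure D4:**
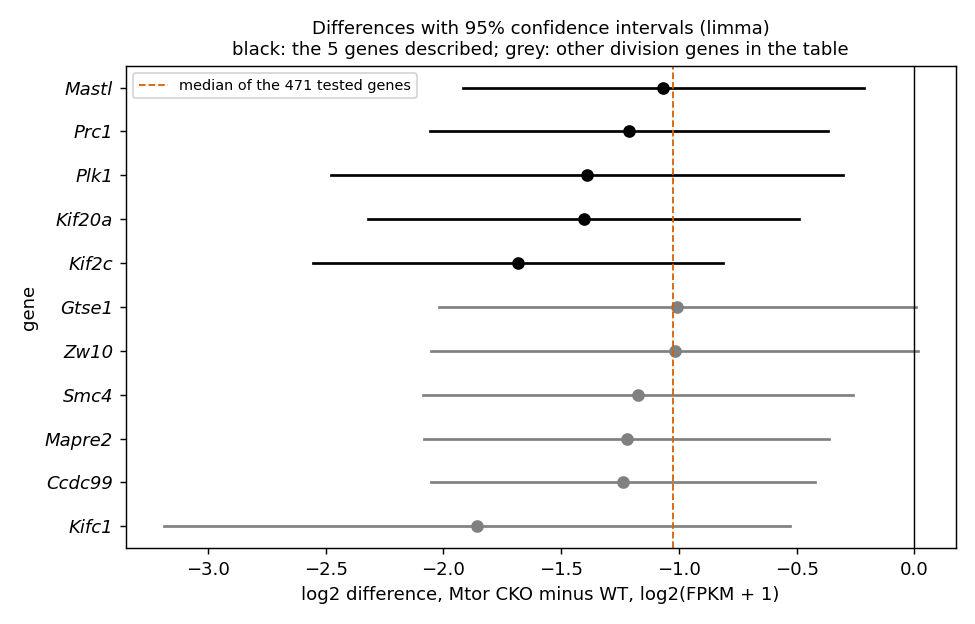
Log2 differences (Mtor CKO minus WT) with 95% confidence intervals from limma for the 5 genes (black) and the 6 other division genes of the table (grey). The intervals of Gtse1 and Zw10 cross 0, and the dashed line marks the median of all tested genes, -1.03.

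The deposited annotation gave a broader view. Among the 516 rows, 21 carried at least 1 of 9 gene ontology terms for spindle, spindle pole, cytokinesis, mitotic division, cell division, chromosome segregation, kinetochore, microtubule motor or microtubule binding, terms chosen after the values were seen. Apart from the 5 genes, 14 of 16 were lower and 2 were higher in the authors' deposited table, and by limma 12 of 16 fell and 0 rose. Of all 516 rows 76.4% were lower in that table, and 60.3% of tested genes were called lower and 13.4% higher, so nothing particular to these terms is read from the counts. The 2 higher rows were Myh9, a nonmuscle myosin of the cell cortex, and Pogz, at 0.99 and 0.68 on the log2 scale, neither of which passed (limma adjusted p = 0.161 and 0.0617). The rows annotated as microtubule motors were Kif2c and Kif20a, already described, Kifc1, and the dynein light intermediate chain Dync1li1, which fell, at -0.71 on the log2 scale (limma adjusted p = 0.0410).

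Profiles over the 6 libraries were compared by the root mean square distance between log2(FPKM + 1) values centred on each gene's mean, a description with no test. Plk1 was closest to Cgn, Ing3 and Fsd1 (distances of 0.139, 0.149 and 0.168), genes that shared its high CKO replicate 2. Cgn, for instance, was at 11.8, 29.5 and 12.4 FPKM in Mtor CKO. Mastl was closest to Lrrc40 (0.0739), 3110052M02Rik and Gm5946, and Kif2c to Mgat4a (0.143), Men1 and Tbx19. Kif20a was closest to Stt3a (0.121) and Rrn3, with Prc1 in rank 3 at 0.163. Prc1 was closest to Becn1, Mapk1ip1l and Enpp2 (0.117 to 0.122), with Kif20a in rank 13 and Mastl in rank 14. The farthest pair of the 5 genes was Plk1 and Mastl, at 0.613. Of these 15 nearest neighbours 8 were the same with a pseudocount of 0.1.

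The authors' own fold changes put the 5 genes in the same order. In the authors' deposited table the log2 fold was -1.66 for Kif2c, -1.49 for Kif20a, -1.27 for Plk1, -1.24 for Prc1 and -1.16 for Mastl. The group FPKM given there is not the mean of the libraries. For Plk1 the group values were 17.9 FPKM (Mtor CKO) and 43.3 FPKM (WT) in the authors' deposited table, 0.683 and 0.674 times the library means, whereas those of Mastl were 1.17 and 1.21 times. Levels of the genes relative to each other therefore depend on which of these columns is read, while the ratio between genotypes changes little.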

How the data were processed

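RNA of 3 Mtor CKO and 3 WT pools of oocytes was copied with a kit for ultra-low input (SMARTer), with 17 PCR cycles, per the labels' protocols. Per the submitters' processing notes, the authors used TopHat2 2.0.8b, Cufflinks 2.1.1 and Cuffdiff with build mm10. Their deposited FPKM values per library and per group keep no counts. The deposited table also gives a log2 fold change, whose sign followed Mtor CKO over WT in 516 of 516 rows, and a p-value and q-value. Its intervals were shifted by 1 base to count from 1. Strand use is not given in the sources used here.

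Limma 3.58.1 (R 4.3.3) was fitted with an empirical Bayes trend to log2(FPKM + 1) of the 471 genes with at least 1 FPKM in at least 3 libraries, with Benjamini-Hochberg adjustment, and tested on simulated data. Gene positions and transcripts are from GENCODE on the same assembly, promoter windows from RefSeq (GRCm38.p6). Copies were searched with BLAST 2.17.0 at 90% identity over 200 nucleotides. Of the 5 genes, 4 had a promoter window. The named genes are the 5 members, every listed division or marker gene in the table, the 3 nearest profiles of each member, and neighbours inside their intervals. Genes with the cited ontology terms were added after their values were seen. The members and lists were chosen with earlier results of these data known. Alternatives were other pseudocounts, filters, centring, no trend, a replicate block and leaving out each library.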

Additional observations from a re-analysis of the deposited data

How the results depend on the processing

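All 5 genes stayed lower in Mtor CKO under each alternative run, and all 5 passed limma with pseudocounts of 0.1 and 0.01, with no filter on low values, with a minimum group mean of 5 FPKM, without the trend, and without CKO replicate 2 or WT replicate 1. In that order, 323, 297, 321, 255, 335, 389 and 246 genes of the table were called in those fits. The tested genes were 471, but 516 with no filter and 362 with the minimum mean. Centred on the median of the tested genes per library, the log2 differences were -0.64 (Plk1), -0.32 (Mastl), -0.93 (Kif2c), -0.66 (Kif20a) and -0.46 (Prc1), 0 of 5 passed, and the table gave 89 calls, 86 higher and 3 lower, in place of 63 higher and 284 lower. Leaving out each library in turn, the log2 difference ran from -1.86 to -1.04 for Plk1, -1.34 to -0.88 for Mastl, -1.94 to -1.51 for Kif2c, -1.70 to -1.18 for Kif20a and -1.49 to -1.06 for Prc1. The number of called genes then ran from 3 to 389, and that of pairs of genes with separate ratios, which cannot fall when a library is left out, from 1 to 7. The cause was not tested. Same-numbered libraries had correlations of residuals of 0.115, 0.240 and 0.0843. CKO replicate 1 with WT replicate 3 gave 0.118, and the other differently numbered pairs were negative, down to -0.218. Residuals were centred on each group's mean, which ties these values to one another, so the negative ones are no separate observation. The labels state no pairing, so the main fit used none, and whether equal numbers mark a shared origin was not tested. With the replicate number as a block 405 genes were called, and the 5 genes had limma adjusted p from 0.0193 to 0.0199. Depth is unknown, so counting error could not be set beside these values.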
